A study of Mus musculus with 6 samples.

Results

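The Eph receptor and ephrin genes described here are 4 genes for EphA receptors (*Epha3*, *Epha4*, *Epha5* and *Epha7*) and 3 genes for ephrin-A ligands (*Efna1*, *Efna2* and *Efna5*). The members were the ATAC-seq peaks whose midpoint lay inside 1 of these genes or within 300 kb of its GENCODE start in the mm10 genome, which gave 218 of the 61954 peaks of the deposited table. The receptor genes held 55 of them and the ligand genes 163. ATAC-seq cuts open chromatin with a transposase, so the signal at a peak measures how accessible that stretch of DNA is.

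The libraries came from distal forelimb buds of E11.5 mouse embryos on a mixed C57BL/6 and 129 background, 2 from wild type and 2 from *Hox13-/-*, each made from 50000 cells of the joined left and right buds of 1 embryo. *Hox13-/-* embryos carry null alleles of both *Hoxa13* (*Hoxa13Str*) and *Hoxd13* (*Hoxd13lacZ*) in every cell, whereas the wild-type embryos carry neither. The comparison asks which open sites depend on HOXA13 and HOXD13, the most posterior HOX proteins of the future digit region. Labels give nothing that pairs the libraries beyond a replicate number, and with bulk tissue a smaller share of cells that hold a site open cannot be told apart from lower accessibility in each cell.

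EphA receptors are tyrosine kinases of the cell surface, and ephrin-A proteins are their membrane-anchored ligands on neighbouring cells. Binding between cells that carry them usually leads to repulsion or altered adhesion, and it sorts cells and steers axons. In the limb bud, EphA receptors and ephrin-A ligands take part in the grouping of mesenchymal cells along the proximo-distal axis and in the paths of motor axons, and *Epha7* is known as a gene under the control of HOXA13 and HOXD13.

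The following 200 bp windows are centred on the 3 lower and then the 2 higher members with the smallest p-values in their direction, and are shown as the sites where accessibility differed most clearly each way. They are the plus strand of mm10, at chr1:77727480-77727679, chr3:89291256-89291455, chr4:28534103-28534302, chr17:62700836-62701035 and chr16:63602550-63602749, and distances are from the gene start, negative for upstream.
*Epha4* −212.5 kb, lower: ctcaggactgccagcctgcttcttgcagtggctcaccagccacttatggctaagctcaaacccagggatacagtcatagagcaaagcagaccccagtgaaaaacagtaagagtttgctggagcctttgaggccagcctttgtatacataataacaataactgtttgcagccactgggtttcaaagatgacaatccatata
*Efna1* −10.2 kb, lower: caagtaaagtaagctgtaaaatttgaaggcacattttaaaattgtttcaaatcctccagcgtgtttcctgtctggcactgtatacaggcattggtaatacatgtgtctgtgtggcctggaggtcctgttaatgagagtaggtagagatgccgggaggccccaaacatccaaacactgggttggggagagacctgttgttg
*Epha7* −278.9 kb, lower: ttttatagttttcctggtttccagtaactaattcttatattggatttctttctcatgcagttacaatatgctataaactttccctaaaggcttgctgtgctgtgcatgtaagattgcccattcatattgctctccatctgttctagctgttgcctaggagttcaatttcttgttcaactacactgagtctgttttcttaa
*Efna5* +180.4 kb, higher: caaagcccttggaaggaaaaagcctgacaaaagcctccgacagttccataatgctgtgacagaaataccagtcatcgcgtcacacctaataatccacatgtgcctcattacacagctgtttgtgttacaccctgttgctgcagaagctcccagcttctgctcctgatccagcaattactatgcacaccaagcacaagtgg
*Epha3* +261.5 kb, higher: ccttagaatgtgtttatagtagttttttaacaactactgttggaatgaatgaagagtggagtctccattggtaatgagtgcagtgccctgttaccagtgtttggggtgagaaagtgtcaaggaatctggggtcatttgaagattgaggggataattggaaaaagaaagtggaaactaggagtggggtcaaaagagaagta

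Neither CAATAAA nor TCGTAAA, a pair of sequences bound by posterior HOX proteins, was found on either strand of these 5 windows. Around the midpoints of the 31 members that differed, 2 windows held a match, and they are shown for that reason, having been picked after their values were seen. The first, at chr16:63596375-63596574, has the reverse complement of CAATAAA in capitals, and the second, at chr17:62701342-62701541, has TCGTAAA in capitals.
*Epha3* +267.7 kb, lower: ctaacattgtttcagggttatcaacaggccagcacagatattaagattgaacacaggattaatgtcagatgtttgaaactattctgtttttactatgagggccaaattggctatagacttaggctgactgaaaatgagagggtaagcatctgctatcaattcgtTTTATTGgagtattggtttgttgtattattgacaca
*Efna5* +179.9 kb, higher: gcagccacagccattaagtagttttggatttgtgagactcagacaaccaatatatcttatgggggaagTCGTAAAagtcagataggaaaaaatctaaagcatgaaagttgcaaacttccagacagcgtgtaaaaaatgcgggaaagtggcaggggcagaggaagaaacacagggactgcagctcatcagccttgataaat
CAATAAA was found in the 200 bp window of 11 of the 218 members (5.05%) against 4.69% of all peaks, and TCGTAAA in that of 2 members (0.917%) against 0.860% of all peaks. Among the 14 lower members 1 window held CAATAAA, against 9.76% for all lower peaks, and none of the 17 windows of higher members did, against 5.23% for all higher peaks. Matches outside the window are not counted here, and the peaks at *Epha4* +121.4 kb and *Efna5* +44.5 kb, both higher, each hold CAATAAA there. A match is a description of these letters in these windows.

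Accessibility differed between the genotypes at 31 of the 218 members, 14 lower and 17 higher in *Hox13-/-*, and at the other 187 it was not called (limma, adjusted p under 0.05 over all peaks). The lower members were 6.42% and the higher members 7.80% of the group, and the same test called 8.31% of all peaks lower and 11.4% higher (19.7% in either direction, against 14.2% of the members), so the called shares of this fit lay below the background in both directions. The higher share stayed below the background in each of the 13 refits, but the lower share did not. It was 11.0% of the members and 11.0% of all peaks when each library was centred on its median, 6.42% against 5.73% without wild type 1, and 5.05% against 5.02% without *Hox13-/-* 1. With the centring the calls were 24 lower and 15 higher for the members, and the split over all peaks turned from 5146 lower and 7040 higher to 6811 lower and 6017 higher. No member passed a difference of 1 on the log2 scale, which 0.537% of all peaks did (0.224% lower and 0.313% higher). Differences ran from −0.83 to 0.93 with a median of −0.03, against −0.01 over all peaks.

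Libraries of the genotypes did not overlap at 68 members lower and 49 higher in *Hox13-/-*, that is more than were called. Over all peaks 29.6% were apart in the lower direction and 29.7% in the higher, 59.2% in all. At 30 of the 31 called members both libraries of one genotype lay above both of the other, and the exception was a peak inside *Epha3* at +46.4 kb, with wild-type values of 3.99 and 4.48 and *Hox13-/-* values of 4.73 and 4.44. This is the background for called peaks, since 110 of all 12186 called peaks were not apart. Values are rLog, the authors' log2 signal scaled between libraries and shrunk towards each peak's mean, and are given for wild type 1, wild type 2, *Hox13-/-* 1 and *Hox13-/-* 2 in that order.

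**Figure D1:**
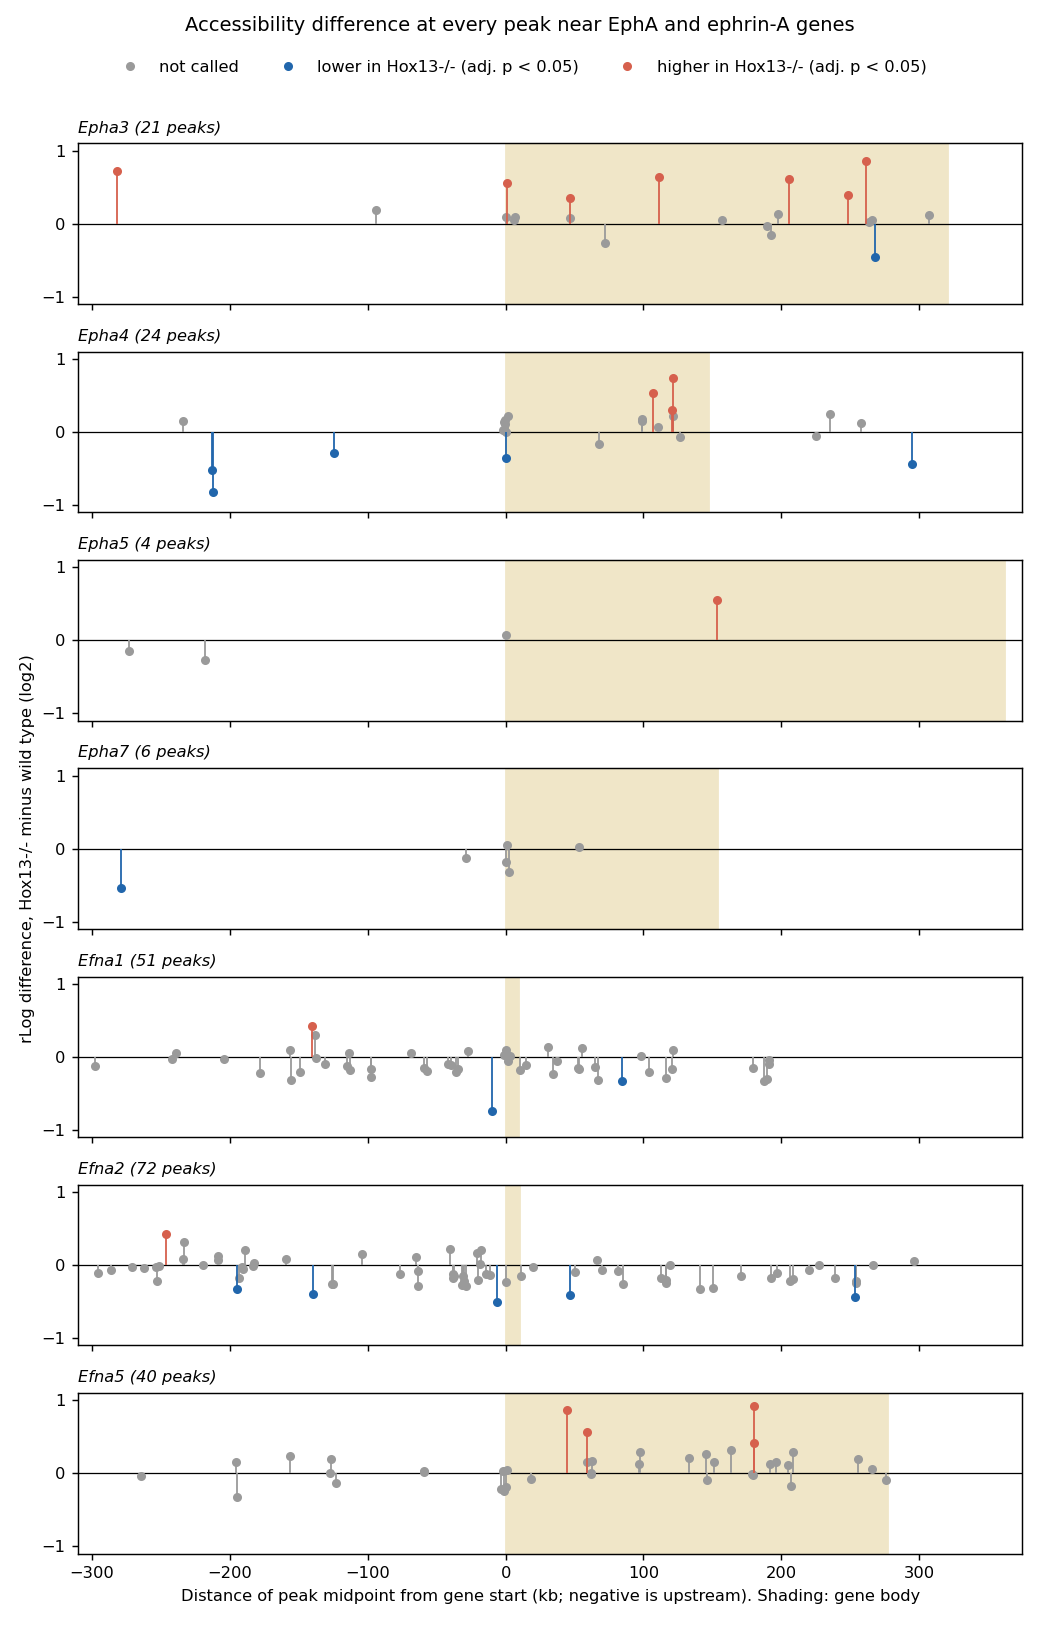
Difference in rLog (log2 scale, *Hox13-/-* minus wild type) at each of the 218 peaks, plotted against the distance of the peak midpoint from the gene start in kb, 1 panel per gene, with the gene body shaded. Blue points are the 14 peaks called lower and red points the 17 called higher; the red points of *Epha3*, *Epha4*, *Epha5* and *Efna5* lie inside the gene bodies except 1 at −281.9 kb of *Epha3*.

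The calls were unequally placed. Inside introns of the member genes themselves lay 62 peaks, of which 14 were higher and 1 was lower in *Hox13-/-*. Those 14 were 6 in *Epha3*, 4 in *Efna5*, 3 in *Epha4* and 1 in *Epha5*. The other 156 peaks had 3 higher and 13 lower. The groups differ in place, since 3 of the 62 and 70 of the 156 lay within 1 kb of a coding gene start. For reference, peaks inside any coding gene and over 1 kb from a coding gene start were higher in 13.8% and lower in 8.03% of cases over the whole table, and peaks outside coding genes were higher in 15.8% and lower in 8.24%. The members of those classes were higher at 15 and lower at 1 of 97 inside coding genes, and higher at 1 and lower at 7 of 48 outside. Within 1 kb of a coding gene start, 6 of 73 members were lower and 1 was higher, with 8.85% lower and 0.672% higher over all such peaks. Farther than 1 kb, 8 of 145 members were lower and 16 higher, with 8.13% lower and 14.8% higher over all such peaks.

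The authors' own peak calls in each library rest on the same reads, so they are no separate check of the limma calls. Of the 14 lower members, 6 had been called as a peak in the wild-type pair alone, and 5 had been called in all 4 libraries. Of the 17 higher members, 8 had been called in the *Hox13-/-* pair alone, and 1 in all 4 libraries. Shares of these patterns over all lower and all higher peaks are not given here, so the counts only describe these members. Lower members had a median GC content of 52.9% and higher members 44.3%, against 57.0% for members that were not called. Over all peaks the lower ones had 48.6%, the higher ones 47.8% and those not called 53.3%, so lower and higher peaks were closer in GC content than among the members.

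**Figure D2:**
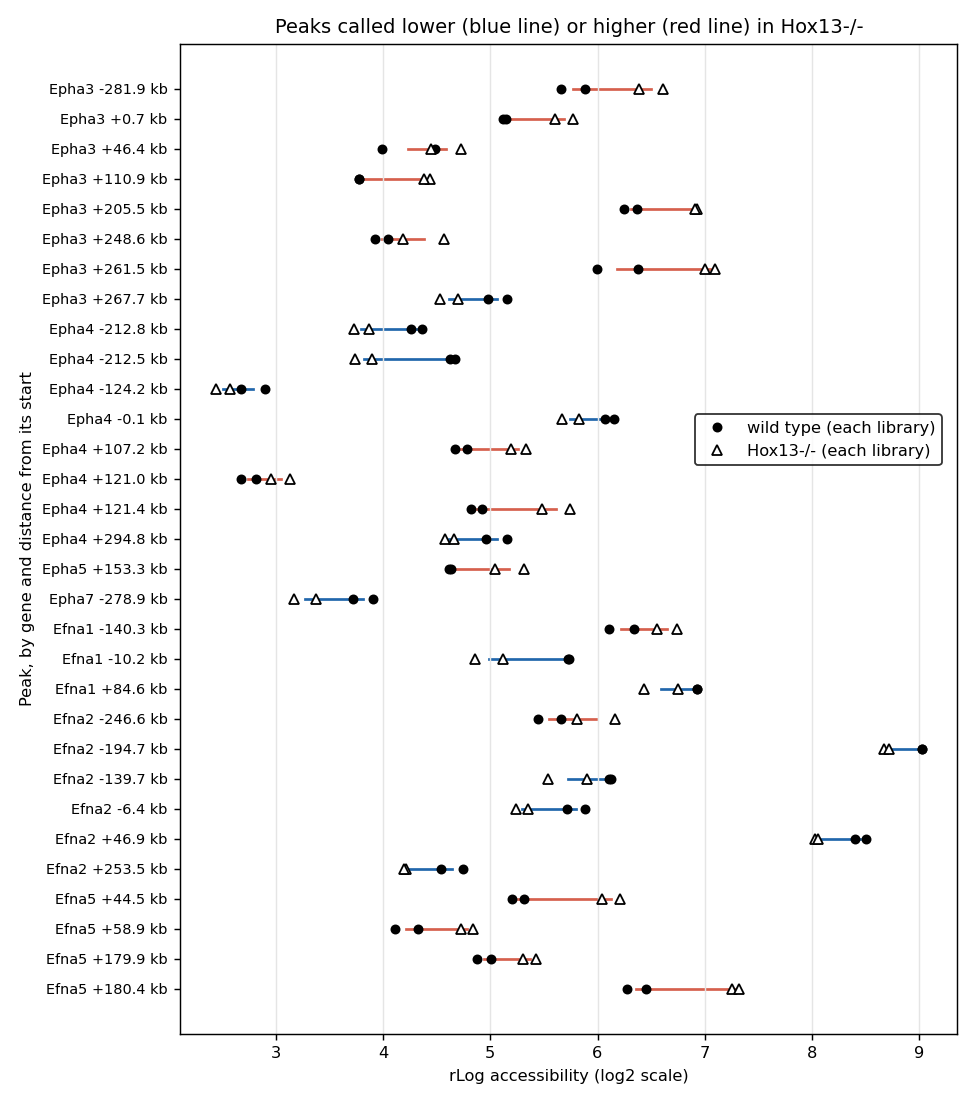
rLog accessibility (log2 scale) of the 31 called peaks in each library, with filled circles for the 2 wild-type and open triangles for the 2 *Hox13-/-* libraries, and a line joining the genotype means (blue lower, red higher in *Hox13-/-*). Peaks are labelled by gene and distance of the midpoint from its start; circles and triangles are interleaved at 1 peak, *Epha3* +46.4 kb.

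*Epha3* encodes a receptor that binds ephrin-A ligands, ephrin-A5 among them. Its gene body spans chr16:63543534-63864175 on the minus strand, with no other coding gene start within the window. Of its 21 peaks 7 were higher (33.3%) and 1 was lower (4.76%) in *Hox13-/-*, against 11.4% and 8.31% of all peaks. The median difference was 0.09. The most clearly higher peak lay in an intron at +261.5 kb (chr16:63602336-63602962), where rLog was 5.99, 6.38, 7.10 and 7.00. Both *Hox13-/-* libraries were above both wild-type libraries, a gap of 0.87 (SE 0.128, limma adjusted p = 1.13e-09), or 1.82-fold on the rLog scale.

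A short way from this peak in the same gene the direction was the opposite. At +267.7 kb (chr16:63596323-63596625, intron), 6.175 kb farther into the gene, rLog was 4.98, 5.15, 4.53 and 4.70, lower in both *Hox13-/-* libraries by 0.45 units of log2 (difference −0.45, standard error 0.131, limma adjusted p = 0.00526). Between them at +263.7 kb stood the strongest peak of the *Epha3* window, with rLog of 7.08, 7.09, 7.10 and 7.11 and a difference of 0.02 (95% interval −0.22 to 0.27). A weaker peak at +266.1 kb, also between them, had 4.59, 4.99, 4.91 and 4.78 and a difference of 0.05 and was not called. The call at +267.7 kb was lost without wild type 2 (limma adjusted p = 0.121) or without *Hox13-/-* 1 (limma adjusted p = 0.118).

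Other intronic peaks of *Epha3* rose by 0.64 at +110.9 kb, where rLog was 3.77, 3.78, 4.44 and 4.38, and by 0.61 at +205.5 kb, where it was 6.37, 6.25, 6.93 and 6.91. Each of the pairs was tight next to the gap between genotypes. Smaller rises of 0.39 at +248.6 kb and 0.35 at +46.4 kb had limma adjusted p-values of 0.0169 and 0.0394, and both calls failed when 1 library was left out. Outside the gene, the peak at −281.9 kb (chr16:64145781-64146363) had rLog of 5.66, 5.88, 6.61 and 6.38, a rise of 0.73.

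At the start of *Epha3* a pair of peaks behaved differently. The peak on the start itself (chr16:63863923-63864403) had rLog of 6.11, 5.90, 6.11 and 6.09, with a difference of 0.09 (95% interval −0.16 to 0.35) that was not called. The peak at +0.7 kb, in the first part of the gene, had 5.14, 5.12, 5.77 and 5.60 and rose by 0.55 (SE 0.131, limma adjusted p = 0.000358). It was the 1 higher member within 1 kb of a coding gene start.

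*Epha4*, which binds ephrins of both the A and the B class and directs limb motor axons, is on chr1:77367185-77515088, minus strand, and likewise has no other coding gene start in its window. Its 24 peaks included 5 lower (20.8%) and 3 higher. All 3 higher peaks lay in introns. Of the lower peaks 4 lay upstream or at the start, and 1 lay beyond the end of the gene. The higher share was near the 11.4% of all peaks. The lower share was above the 8.31% of all peaks in this fit, but with GC correction the lower count was 2. The lower member with the smallest p-value was intergenic at −212.5 kb (chr1:77727479-77727680), where rLog was 4.62, 4.67, 3.90 and 3.74. Accessibility was thus 1.77-fold lower on the rLog scale, by −0.83 ± 0.129 (standard error) in log2 units, at a limma adjusted p of 1.12e-08.

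A neighbouring peak 123 bp away, at −212.8 kb, had rLog of 4.26, 4.36, 3.73 and 3.87 and fell by 0.51. The authors had called this pair of peaks in the wild-type libraries alone. The remaining lower sites were weaker, with −0.44 at +294.8 kb, where rLog was 5.15, 4.96, 4.57 and 4.66, and −0.28 at −124.2 kb, where it was 2.90, 2.68, 2.57 and 2.43. The first was not called without wild type 1 or without *Hox13-/-* 1, and the second not without wild type 1 or without *Hox13-/-* 2.

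Inside *Epha4* the clearest rise was at +121.4 kb (chr1:77393520-77393922), with rLog of 4.82, 4.92, 5.48 and 5.74 and a rise of 0.74 (SE 0.131, limma adjusted p = 6.24e-07). A small peak 114 bp from it, at +121.0 kb, rose by 0.30 (limma adjusted p = 0.0364), a call lost without wild type 2 (0.248) or without *Hox13-/-* 2 (0.272). At +107.2 kb rLog was 4.67, 4.78, 5.19 and 5.33, a rise of 0.54. These 3 peaks lie near each other in the gene's interior, and at each of them both *Hox13-/-* libraries were the higher ones.

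The start-site peak of a gene is here the strongest of the peaks that reach within 1 kb of its start. Among the 7 genes, *Epha4* was the one whose start-site peak was called. At chr1:77514985-77515326, 67 bp upstream of the start by its midpoint, rLog was 6.07, 6.15, 5.83 and 5.67, a difference of −0.36 (SE 0.129, limma adjusted p = 0.0306). Its neighbours within 1 kb of the start differed by 0.11 at −0.3 kb, 0.17 at −0.7 kb and −0.00132 at +0.6 kb, none of them called, so the lower value was seen at 1 of 4 peaks there. The call was lost with GC correction, where the difference was −0.29 (limma adjusted p = 0.109). It was also lost without wild type 1 (difference −0.40), without wild type 2 (−0.32) and without *Hox13-/-* 2 (−0.28). The strongest peak near *Epha4*, at −1.4 kb, had rLog of 5.83, 6.28, 6.18 and 6.21, with wild type 1 the low library and a difference of 0.14 (95% interval −0.11 to 0.39).

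**Figure D3:**
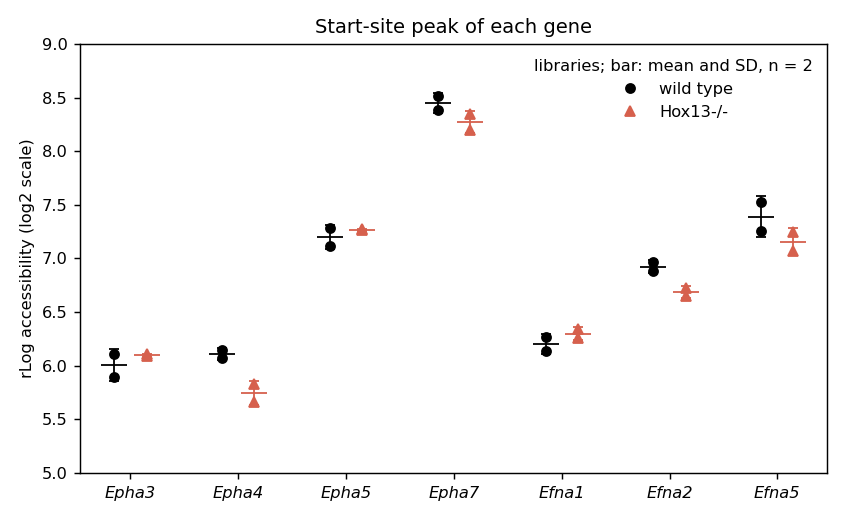
rLog accessibility (log2 scale, axis from 5 to 9) of the start-site peak of each of the 7 genes, with circles for wild-type and triangles for *Hox13-/-* libraries and bars for the mean and SD (n = 2). The *Epha4* peak is lower in *Hox13-/-* (6.07 and 6.15 against 5.83 and 5.67); *Epha7* has the highest values and the other 6 start-site peaks were not called.

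*Epha5*, a receptor best known from the nervous system, has a long gene (chr5:84054761-84417382, minus strand) with few open sites in this tissue, 4 peaks in the whole window. The peak on its start had rLog of 7.28, 7.12, 7.27 and 7.26, a difference of 0.07 (95% interval −0.18 to 0.31). The single peak inside the gene, in an intron at +153.3 kb (chr5:84263937-84264314), had 4.63, 4.61, 5.04 and 5.31 and rose by 0.55 (SE 0.131, limma adjusted p = 0.000410). The authors had called it in the *Hox13-/-* libraries and not in the wild-type ones. Without *Hox13-/-* 2 the difference was 0.42 and was not called (limma adjusted p = 0.0660).

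*Epha7* (chr4:28813131-28967499, plus strand) is the receptor gene of this set with a known tie to HOXA13 and HOXD13 in the limb. Its start-site peak was the most accessible of the 7 genes, with rLog of 8.38, 8.52, 8.20 and 8.35. Both *Hox13-/-* libraries were below both wild-type libraries, yet the difference of −0.18 (95% interval −0.42 to 0.06, limma adjusted p = 0.313) was not called. Over the alternatives it ran from −0.25 without *Hox13-/-* 2 to −0.0357 with cyclic loess, with −0.24 without wild type 1, −0.11 without wild type 2, −0.10 without *Hox13-/-* 1 and −0.0751 with quantile normalization. A peak at +2.1 kb in the gene, with 6.66, 6.98, 6.55 and 6.45, differed by −0.32 and fell short of the threshold (limma adjusted p = 0.0568).

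One of the 6 peaks around *Epha7* was called. It is an intergenic peak at −278.9 kb (chr4:28534088-28534316), where rLog was 3.71, 3.90, 3.17 and 3.38, a difference of −0.54 (SE 0.122, limma adjusted p = 0.000176). This is the least accessible of the peaks whose sequence is shown above, and *Epha7* is the nearest coding gene. Inside the gene, the peak at +53.5 kb had 5.12, 5.18, 5.06 and 5.30 and a difference of 0.03, with the libraries of the genotypes overlapping.

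*Efna5* encodes ephrin-A5, a ligand of several EphA receptors, and spans chr17:62604184-62881317 on the minus strand. Of its 40 peaks 4 were higher (10%) and 0 were lower (8 and 1 at an unadjusted p under 0.05). Over all peaks the shares were 11.4% higher and 8.31% lower. The gene body held 28 of the 40, including all 4 that were called. The peak at +180.4 kb (chr17:62700669-62701202, intron) showed the biggest rise of the 218 members, with rLog of 6.45, 6.27, 7.25 and 7.32. The difference was 0.93 (SE 0.127, limma adjusted p = 3.72e-11), or 1.90-fold on the rLog scale, and 1.02 without wild type 1.

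At +179.9 kb, 56 bp from that peak, rLog was 5.01, 4.88, 5.43 and 5.31, a rise of 0.42 that was not called without wild type 2 (limma adjusted p = 0.120) or without *Hox13-/-* 1 (0.123). The next peaks towards the start of the gene, at +179.1 kb and +178.7 kb, differed by −0.02 and −0.01. Nearer the start, rLog at +44.5 kb (chr17:62836545-62837025) was 5.31, 5.21, 6.21 and 6.04, a rise of 0.87 (SE 0.130, limma adjusted p = 2.34e-09). At +58.9 kb it was 4.11, 4.33, 4.83 and 4.73, a rise of 0.57. Both of these had been called by the authors in the *Hox13-/-* libraries alone.

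The peak taken for the start site of *Efna5*, with its midpoint at −1.4 kb (chr17:62882178-62883217), ends 861 bp short of the start and was the strongest of its window with 7.52, 7.25, 7.24 and 7.07. The difference of −0.23 was not called (95% interval −0.48 to 0.01), and wild type 2 and *Hox13-/-* 1 were almost equal. It ran from −0.37 without wild type 2 to −0.0976 without wild type 1. A weaker peak nearer the start, at +0.4 kb, had 4.83, 4.67, 4.45 and 4.70 and a difference of −0.18, also not called. Upstream of *Efna5* 12 peaks had 0 calls by limma in either direction (1 was lower at an unadjusted p under 0.05), the nearest to the threshold being a peak at −195.0 kb in an intron of *Fbxl17*, with a difference of −0.33 (limma adjusted p = 0.0520). Over the *Efna5* window 1 peak was called lower with median centring, quantile normalization, limma without the trend or either low-value filter. The same count came with GC correction, with or without the replicate block.

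*Efna1* encodes ephrin-A1 and lies in a dense stretch of genes (chr3:89271733-89281142, minus strand). Within 300 kb there were 30 other coding gene starts, and *Efna1* was the nearest coding start for 5 of its 51 peaks. The clearest difference was at 1 of these 5, at −10.2 kb (chr3:89291178-89291532), with rLog of 5.73, 5.72, 4.86 and 5.12. The fall of 0.74 (SE 0.131, limma adjusted p = 5.69e-07) corresponds to 1.67-fold on the rLog scale, and the wild-type libraries differed from each other by far less than from either *Hox13-/-* library.

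The start-site peak of *Efna1* (chr3:89280752-89281294) had 6.14, 6.27, 6.26 and 6.34, a difference of 0.09 (95% interval −0.16 to 0.35), with the genotypes overlapping. It ran from 0.0306 without wild type 1 to 0.17 with GC correction. Other called peaks of the window were nearest to other genes. The peak at −140.3 kb, in an intron of *Shc1*, had 6.34, 6.11, 6.74 and 6.55 and rose by 0.42, and it lost its call without wild type 2 or without *Hox13-/-* 1. At +84.6 kb, between genes, rLog was 6.93, 6.93, 6.76 and 6.44, a fall of 0.33 (limma adjusted p = 0.0459) that 6 of 13 refits called. The strongest peak of the window, on *Shc1* at −137.5 kb, differed by −0.02.

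*Efna2*, for ephrin-A2, sits in an even denser stretch (chr10:80179482-80190010, plus strand) with 37 other coding gene starts. It was the nearest coding start for 3 of its 72 peaks, none of which was called. Its start-site peak had rLog of 6.96, 6.88, 6.73 and 6.65. Both *Hox13-/-* libraries were the lower ones, and the difference of −0.23 (95% interval −0.48 to 0.01, limma adjusted p = 0.188) was not called. With GC correction it was −0.0756, at a peak with a GC content of 78.6%.

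Of the 72 peaks 5 were lower (6.94%) and 1 was higher (1.39%), against 8.31% and 11.4% of all peaks. The lower peak with the smallest p-value was at −6.4 kb, in an exon of *1600002K03Rik* at that gene's start, with 5.71, 5.88, 5.24 and 5.35, a fall of 0.50 (SE 0.130, limma adjusted p = 0.00158). The other 4 lower peaks, nearest to *Tmem259*, *Polr2e*, *Mum1* and *Tcf3*, fell by 0.33 to 0.44. All 5 lower calls were lost without wild type 2, and 1 of them, the peak at −6.4 kb, held without *Hox13-/-* 2. The higher peak, at −246.6 kb in an intron of *Arid3a*, had 5.66, 5.44, 5.81 and 6.16, a rise of 0.43. The *Arid3a* peak was not called without wild type 2 or without *Hox13-/-* 2. The strongest peak of the window, on *Mbd3* at +219.9 kb, differed by −0.07.

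**Figure D4:**
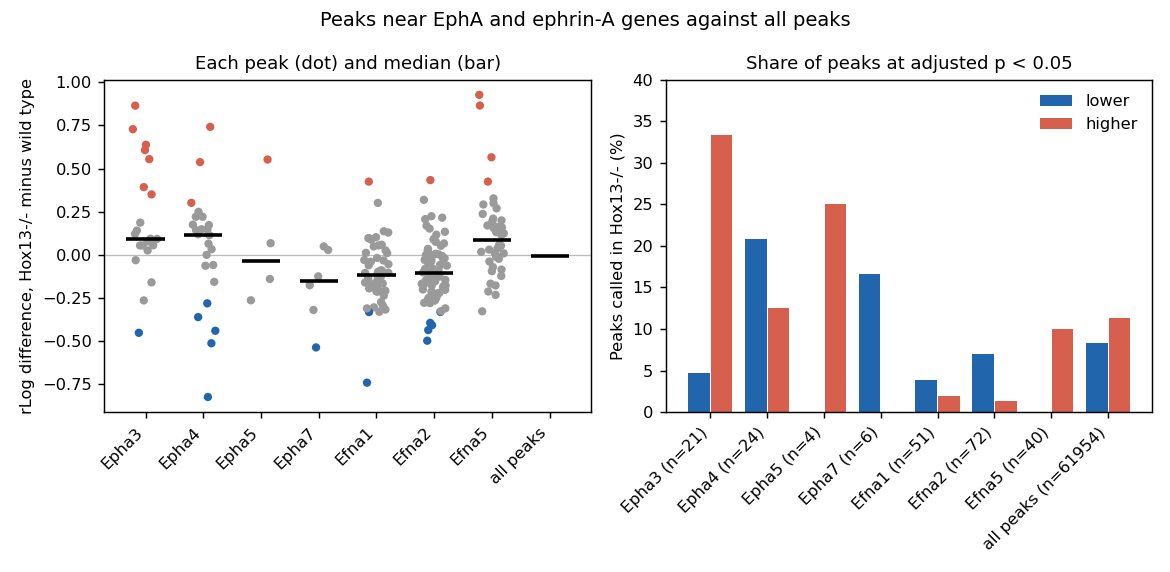
Left, rLog difference (log2 scale, *Hox13-/-* minus wild type) of each peak by gene, with the median as a bar and all peaks of the table at the right by their median (−0.01). Right, percent of peaks called lower (blue) or higher (red) for each gene and for all peaks (8.31% and 11.4%), with the number of peaks in brackets; *Epha3* has the tallest higher bar (33.3% of 21 peaks), and with 4 or 6 peaks the bars of *Epha5* and *Epha7* stand for 1 peak each.

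The genes thus fell into gene-poor and gene-dense surroundings. Around *Epha3*, *Epha4*, *Epha5*, *Epha7* and *Efna5*, whose windows hold no other coding gene start, 95 peaks had 7 lower (7.37%) and 15 higher (15.8%) calls and a median difference of 0.07. These shares are near the 8.13% and 14.8% of all peaks farther than 1 kb from a coding gene start. Around *Efna1* and *Efna2*, 123 peaks had 7 lower (5.69%) and 2 higher (1.63%) calls and a median of −0.12, with 64 of the 123 within 1 kb of a coding gene start. All peaks that near a start were lower in 8.85% and higher in 0.672% of cases, those farther away in 8.13% and 14.8%, and all peaks together in 8.31% and 11.4%. Of the members around *Efna1*, 49.0% lay within 1 kb of a coding gene start, and around *Efna2* 54.2%. The share was 2.50% around *Efna5*, 9.52% around *Epha3*, 16.7% around *Epha4* and *Epha7*, and 25% around *Epha5*. Peaks that are called lie next to each other in 3 places, with gaps under 1000 bp, and in all 3 the neighbours moved in the same direction, as in *Epha4* at −212.5 kb and +121.4 kb and in *Efna5* at +180.4 kb.

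Start sites were also ranked by wild-type level per length, as rLog minus the log2 of the peak length in kb. *Epha7* was first at 8.76 ± 0.094 (SD, n = 2), and neither of its libraries overlapped those of the next gene. *Epha5* at 7.72, *Efna2* at 7.68 and *Epha4* at 7.66 followed, each overlapping its neighbour in the order. *Efna5* at 7.33 was apart from *Epha4* above it and from *Efna1* at 7.08 below it, and *Efna1* overlapped *Epha3* at 7.06 ± 0.15 (SD, n = 2). With the peak nearest to each start instead, a choice made after seeing the data, *Efna5* was last at 6.84 and the other genes kept their peaks. Accessibility of a start site is no measure of the gene's transcript level, which was not analysed here.

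Related genes were counted in the same windows. Around *Epha1*, *Epha2*, *Epha6*, *Epha8*, *Epha10*, *Efna3* and *Efna4* there were 180 peaks, with 10 lower (5.56%) and 4 higher (2.22%), both shares below those of all peaks (8.31% and 11.4%). Of these 180 peaks 40.6% lay within 1 kb of a coding gene start, against 24.3% of all peaks. All peaks that near a start were lower in 8.85% and higher in 0.672% of cases. *Efna3* and *Efna4* lie beside *Efna1* and share 51 peaks with it, 98.1% of the peaks of each, and without those the count was 8 lower and 3 higher of 129. EphB receptor and ephrin-B genes had 191 peaks, 11 lower (5.76%) and 15 higher (7.85%), likewise below the shares of all peaks, over 7 of 8 genes, since *Efnb1* is on the X chromosome and the table used here covers the 19 autosomes. *Efnb2*, for ephrin-B2, had 6 higher and 1 lower of 20 peaks. *Ephb1* had the 1 peak of these lists past a difference of 1, a rise of 1.01; these genes were singled out after their values were seen.

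Genes that pass Eph signals on inside the cell or cut ephrins gave 282 peaks over 12 genes, 25 lower (8.87%) and 31 higher (11.0%), near the 8.31% and 11.4% of all peaks. The exchange factors *Vav2* and *Vav3*, which link Eph receptors to Rac, had 3 lower and 5 higher of 32 peaks and 3 lower and 0 higher of 12 peaks, with 1 *Vav3* peak higher at an unadjusted p under 0.05. *Chn1*, for the Rac-inactivating protein chimaerin downstream of EphA4, had 7 lower and 3 higher of 42 peaks. However, *Chn1* was the nearest coding start for only 4 of those 42 peaks, so the counts describe its window and not the gene alone. *Vav2* was the nearest for 3 of its 32 peaks and *Vav3* for 7 of its 12. The ephrin-cleaving protease gene *Adam10*, nearest for 3 of its 13 peaks, had 0 lower and 1 higher, with none lower at an unadjusted p under 0.05.

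Marker genes were read at peaks within 1 kb of their starts to see which cells the libraries hold, with the strongest such peak standing for each gene. All 6 limb mesenchyme markers and all 4 distal limb markers had a peak, with summed levels (log2 of summed signal) of 9.15 for wild type against 9.20 for *Hox13-/-* in mesenchyme, and 8.02 against 8.08 in distal limb. The distal markers include the mutated genes themselves, *Hoxa13* (difference −0.08) and *Hoxd13* (−0.26). The others were *Sall1* (0.13) and *Sall3* (0.12), and no distal marker was called. *Prrx1* was the strongest mesenchyme marker, and *Twist1* was lower in *Hox13-/-*, with a difference of −0.40 (limma adjusted p = 0.0143). Among proximal markers *Hoxa11* was lower, with a difference of −1.74 at the strongest of its 3 peaks, *Meis1* and *Shox2* were not called, and *Meis2* had no peak. The summed level of the proximal markers was 7.12 for wild type against 5.89 for *Hox13-/-*, a fall carried by *Hoxa11*, since *Meis1* differed by −0.07 and *Shox2* by 0.00369. *Hoxa11* is itself known to respond to HOXA13 and HOXD13 in the distal limb, so the sum is not read as a measure of proximal cells. The authors report that *Hoxa11* is expressed distally in *Hox13-/-* limbs. They also report that accessibility at the enhancer of its antisense transcription depends on HOXA13 and HOXD13.

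Among the other cell types reported here, markers were sparse. No blood marker of 5 had a peak, and of 5 muscle precursor markers only *Met* had one, with *Pax3*, *Pax7*, *Lbx1* and *Myf5* lacking any. Ectoderm had 2 of 6, *Epcam* and *Cdh1*, with a summed level of 4.23 for wild type against 4.18 for *Hox13-/-*. Endothelium had 2 of 5, led by *Kdr*, at 7.28 against 7.27. The part of cell composition in the differences near EphA and ephrin-A genes was not tested.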

How the data were processed

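Accessibility was measured by ATAC-seq in distal forelimb buds, 2 libraries per genotype, grouped by the labels; the 2 proximal libraries were not analysed here. According to the methods and the submitters' processing notes, the authors aligned reads to mm10 with Bowtie2 2.3.1, called peaks in each library with MACS2 2.1.1.20160309, merged them and quantified them with HOMER 4.9.1. The authors deposited rLog values per library, a log2 scale from DESeq2 that is scaled by size factors and shrunk, so differences at weak peaks are understated. No Tn5 shift, duplicate or blacklist step is given in the sources used here. Since rLog keeps no read numbers, depth at each peak is unknown, and counting intervals could not be computed. The deposited table also holds the authors' own comparison (log2 fold change, p-value and adjusted p-value), which was not used.

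Genotypes were compared at the 61954 peaks by limma 3.58.1 under R 4.3.3 (genotype term, variance trend, two-sided, Benjamini-Hochberg), called at an adjusted p under 0.05, with no low-value filter. All 218 members were tested. The design named the start-site peak, the peak with the smallest p-value in each direction and the strongest peak of each gene. Other peaks in the text were chosen after their values were seen. The spread was pooled across peaks, so p-values rest on a spread shared by all peaks; an exact permutation of 2 against 2 libraries cannot give a two-sided p below 0.333. No batch is given in the labels, and p-values measure the spread between these libraries. In simulated data 59 of 100 peaks changed by 0.5 and 100 of 100 changed by 1 were recovered, with 4 others called among 61954. The simulated noise was normal, independent and drawn with the spread that limma had fitted, so this check cannot test that spread. Far fewer peaks were changed there than the 12186 called in the data, so these recovery counts need not hold for the data. Genes were from GENCODE release 21 (basic), in which all 34 Eph family and signalling symbols matched; sequences were read from the mm10 genome. The members and lists were chosen with earlier results of these data known. One further marker list is not reported here. Alternatives changed the scaling, variance model, low-value filter, threshold, GC correction, replicate block, libraries, window and assignment.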

Additional observations from a re-analysis of the deposited data

How the results depend on the processing

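The count of higher members, 17, stayed within 1.5 times under every alternative run (12 to 23), and the count of lower members, 14, did not. Lower members numbered 24 with each library centred on its median, 9 with GC correction, 9 at an adjusted p under 0.01, 6 in windows of 100 kb, 22 in windows of 500 kb and 8 when assigned to the nearest coding start only, and 7 to 14 with 1 library left out (8 without wild type 2, 7 without *Hox13-/-* 2). The cause was not tested, beyond the fewer or more peaks that the windows and the assignment hold by construction. With 1 library left out, the lone sample is assumed to vary like the other group, and 0 to 1 members passed a difference of 1 (*Efna5* +180.4 kb at 1.02 without wild type 1, *Epha3* +261.5 kb at 1.06 without wild type 2).

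The median difference of −0.03 was −0.0661 with median centring, −0.0504 with quantile normalization, −0.0719 in the upper 50% of peaks, −0.0024 with GC correction and with GC correction plus replicate block, 0.0163 in windows of 100 kb, −0.0554 in windows of 500 kb, 0.0542 for the nearest coding start only, and −0.0509 to −0.0145 with 1 library left out. Samples of the same number did not deviate together over all peaks (r = −0.0106), and the labels give them only a number in common. This is a single check, because with 2 libraries per genotype both pairs give the same r. It cannot exclude a shared litter, day or batch. The replicate block gave 13 lower and 17 higher members.

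Of the called members, 10 of 17 higher and 3 of 14 lower ones were called in every one of the 13 refits that tested them, and the lower ones are *Epha4* −212.5 kb, *Efna1* −10.2 kb and *Epha7* −278.9 kb. The higher ones are *Epha3* +261.5, +205.5, +110.9, +0.7 and −281.9 kb, *Epha4* +121.4 and +107.2 kb, and *Efna5* +180.4, +58.9 and +44.5 kb. Signs reversed at peaks that were not called. *Epha3* +263.7 kb was −0.0099 with median centring. *Efna1* −137.5 kb was 0.069 with quantile normalization and 0.12 with cyclic loess. *Efna2* +219.9 kb was 0.0911 with quantile normalization, 0.12 with cyclic loess and 0.0652 with GC correction, with or without the replicate block. With 1 library left out, the range was −0.0141 to 0.20 at the *Epha3* start, −0.0811 to 0.36 at *Epha4* −1.4 kb, −0.0134 to 0.15 at the *Epha5* start and −0.0801 to 0.0417 at *Efna1* −137.5 kb.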
